A study of Homo sapiens with 12 samples.

Results

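The genes described here are members of the CMTM family and other regulators of the stability of PD-L1, measured as mRNA in A375 melanoma cells. They were taken by symbol (CMTM3, CMTM4, CMTM6, CMTM7, CMTM8, COPS5, CUL3 and B3GNT3), and 7 of the 8 symbols had a row among the 4918 genes used here, whose symbols run from A1BG to FAM46B. B3GNT3 was not analysed here. The genes were picked by symbol and not by a cutoff on values, but earlier results of these data were known at that point. CD274, the gene of PD-L1, was set beside the 7 genes throughout.

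PD-L1 on the surface of a tumor cell binds PD-1 on T cells and restrains their killing. Its amount depends on transcription of CD274, which IFNγ induces, and on how long the protein lasts. CMTM6 is a membrane protein with a MARVEL domain that binds PD-L1 and keeps it out of lysosomes, and CMTM4 can act in its place. COPS5 (also called CSN5 or JAB1) is the catalytic subunit of the COP9 signalosome, which removes NEDD8 from cullins, and is known to remove ubiquitin from PD-L1. CUL3 is the scaffold of ubiquitin ligases that use BTB proteins as adaptors, and with SPOP it marks PD-L1 for degradation. B3GNT3 extends poly-N-acetyllactosamine on the glycans of PD-L1. All of these act on the protein, and the data hold mRNA only.

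A375 is an established human melanoma line, so every value comes from the cells of 1 line. The groups were control cells (labelled as treated with none), cells given SB-3CT, a small-molecule inhibitor of MMP2 and MMP9, cells given IFNγ, and cells given SB-3CT and IFNγ, all taken at 24 h with 3 samples per group. The labels state no dose for these samples and mention a vehicle in the protocol. Deposited values are log2(FPKM + 1), where FPKM counts fragments scaled for transcript length and for the fragments mapped in the library, and the FPKM given below were computed back from them. Of the genes used as markers of melanoma cells, CSPG4, ERBB3, EDNRB and CSAG1 were above 1 FPKM in every sample, while DCT stayed below 1 FPKM. Of 14 marker genes of T cells, B cells, myeloid, endothelial, epithelial cells and fibroblasts, 12 were below 1 FPKM in all 12 samples, the exceptions being CD68 and CLDN4. All 10 genes of a list of IFNγ targets were higher with IFNγ than in control. Depth relative to the control mean, read from the steps in the lowest FPKM values, ranged from 87.2% to 150%, and absolute depth is unknown. In bulk RNA of this kind, fewer cells of a type and less RNA per cell cannot be told apart.

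The upstream 250 bases of CD274 and of CMTM6 are shown because the first gene rose with IFNγ and the second was not called. Both are RefSeq sequences of GRCh38.p14, written in the direction of the gene. CD274 lies at chr9:5450292-5450541 on the plus strand, and CMTM6 at chr3:32502853-32503102 on the minus strand. Capitals mark matches on either strand to TTCNNNGAA, a palindrome known from promoters that answer to interferon, or to GAAANN followed by GAAA, the repeat read by IRF proteins.

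CD274: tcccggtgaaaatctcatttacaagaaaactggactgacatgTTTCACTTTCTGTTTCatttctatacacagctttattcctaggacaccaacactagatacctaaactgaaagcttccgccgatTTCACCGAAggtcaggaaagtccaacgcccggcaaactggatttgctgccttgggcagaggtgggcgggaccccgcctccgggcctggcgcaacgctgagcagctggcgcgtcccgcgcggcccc

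CMTM6: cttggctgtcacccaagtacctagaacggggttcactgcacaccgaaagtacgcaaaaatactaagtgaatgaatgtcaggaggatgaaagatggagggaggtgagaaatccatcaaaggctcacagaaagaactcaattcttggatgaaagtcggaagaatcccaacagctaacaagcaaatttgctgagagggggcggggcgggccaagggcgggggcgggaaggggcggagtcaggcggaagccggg

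In CD274 the match TTCACCGAA stood 125 to 117 bases before the start, and a pair of overlapping matches to the IRF letters, TTTCACTTTC and TTTCTGTTTC, began 208 and 202 bases before it. Of the 7 genes, 6 had windows of 250 bases before to 50 after a start, 9 windows in all, and neither motif was in any of them. Among all 35116 RefSeq windows of that length 7.66% held the first motif and 3.57% the second. A missing match says only that these letters were not in the window.

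By FPKM, which is per length, the 7 genes fell into 3 tiers. COPS5 (81.8 ± 2.3 FPKM, SD, n = 3) and CMTM7 (80.2 ± 2.9) led in control cells and overlapped each other. CMTM6 followed at 35.8 ± 1.6 and CMTM3 at 17.2 ± 1.6, each apart from its neighbours in that order. CUL3 (5.21 ± 0.56) and CMTM8 (4.87 ± 0.49) overlapped, and CMTM4 was lowest at 2.61 ± 0.14. Of the pair that protects PD-L1, CMTM6 was thus far more abundant than CMTM4, and 86.9% of the genes used here lay below CMTM6 in control against 45.3% below CMTM4. The order of the tiers was the same in all 4 groups. What changed was the place of CD274, which at 0.543 ± 0.105 FPKM was below every one of the 7 genes in control, at 21.7 ± 2.3 passed CMTM3 in mean but overlapped it with IFNγ, and at 14.7 ± 1.4 was back below CMTM3 with SB-3CT and IFNγ.

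**Figure D1:**
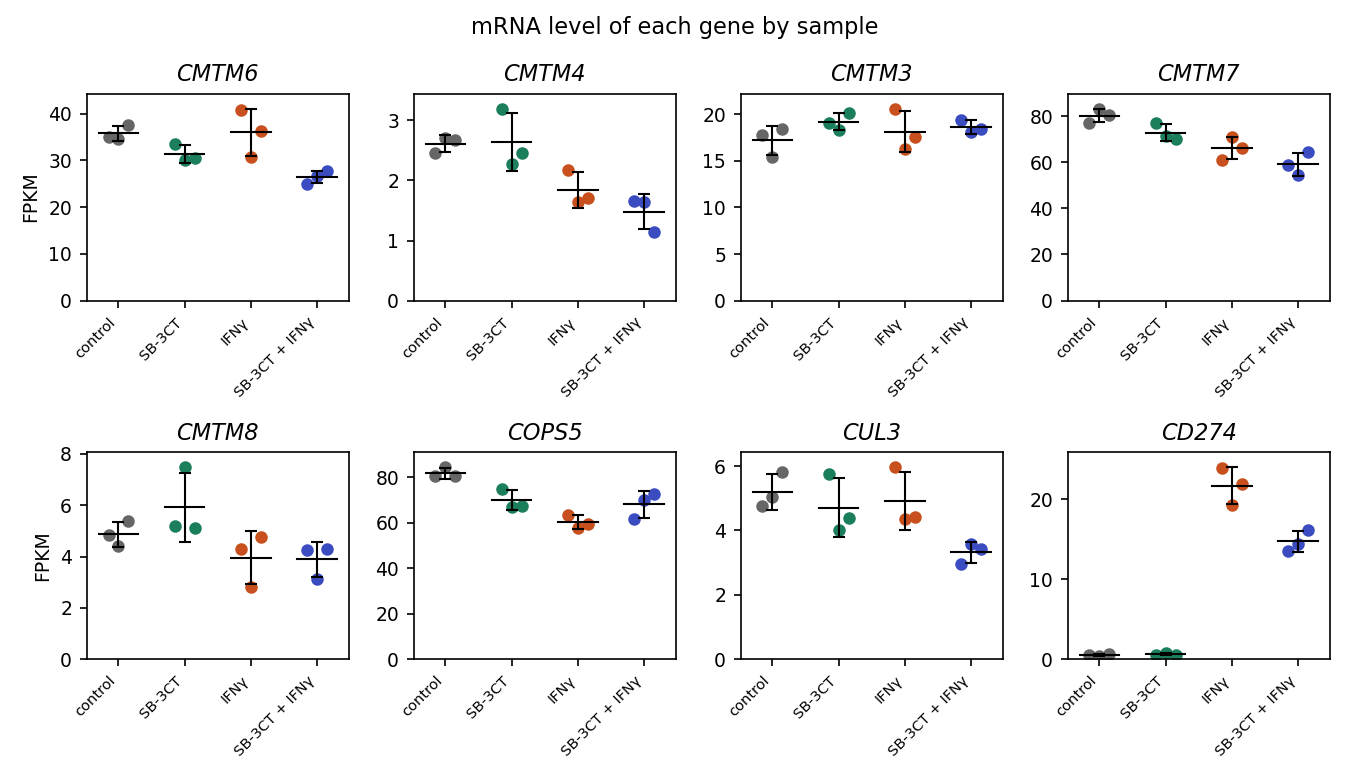
FPKM (vertical axes, from 0) of the 7 genes and CD274 in each sample of the 4 groups, with points for samples, long bars for means and error bars for 1 SD (n = 3). COPS5 is highest in the 3 control samples, CMTM6 and CUL3 are lowest in the 3 samples with SB-3CT and IFNγ, and CD274 is above 13 FPKM only in the 6 samples with IFNγ.

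With IFNγ alone 3 of the 7 genes fell, COPS5, CMTM4 and CMTM7, and 0 rose, while mean FPKM of CD274 was 39.96-fold higher. Calls are at an adjusted p under 0.05 from limma, with Benjamini-Hochberg adjustment over all 4918 genes, and in this comparison 19.5% of all genes were called, 8.46% as higher and 11.0% as lower. The same 3 genes had no overlap between the 3 samples of each group, as was so for 36.9% of all genes, 15.0% being higher and 22.0% lower. The median log2 change of the 7 genes was -0.26, against -0.02 for all genes. CMTM6, CMTM3, CMTM8 and CUL3 were not called.

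With SB-3CT alone only COPS5 was called, lower, where 12.2% of all genes were called, 5.37% as higher and 6.87% as lower. COPS5, CMTM6 and CMTM7 did not overlap with control and were lower. Of all genes 33.9% did not overlap, 14.2% being higher and 19.7% lower. Comparing SB-3CT and IFNγ with IFNγ, CMTM6 and CUL3 fell and 0 rose. That count has to be read against 37.9% of all genes called, 6.41% as higher and 31.5% as lower, and 2 of 7 is not above it. The same pair did not overlap, where 49.0% of all genes did not, 9.35% being higher and 39.6% lower. Comparing SB-3CT and IFNγ with SB-3CT, CMTM4, CMTM6 and CMTM7 fell, against 40.5% of all genes called, 7.85% as higher and 32.7% as lower. Here 5 of the 7 did not overlap and were lower, against 51.7% of all genes without overlap, 9.84% being higher and 41.9% lower.

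The test of whether the SB-3CT change differed with IFNγ, fitted over all 12 samples, called COPS5 alone among the 7 genes, where 22.3% of all genes were called. Its sign was positive, as for 4.74% of all genes, against 17.6% called as negative. The comparisons share samples, so each sample of the IFNγ group enters 3 of these 5 results.

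**Figure D2:**
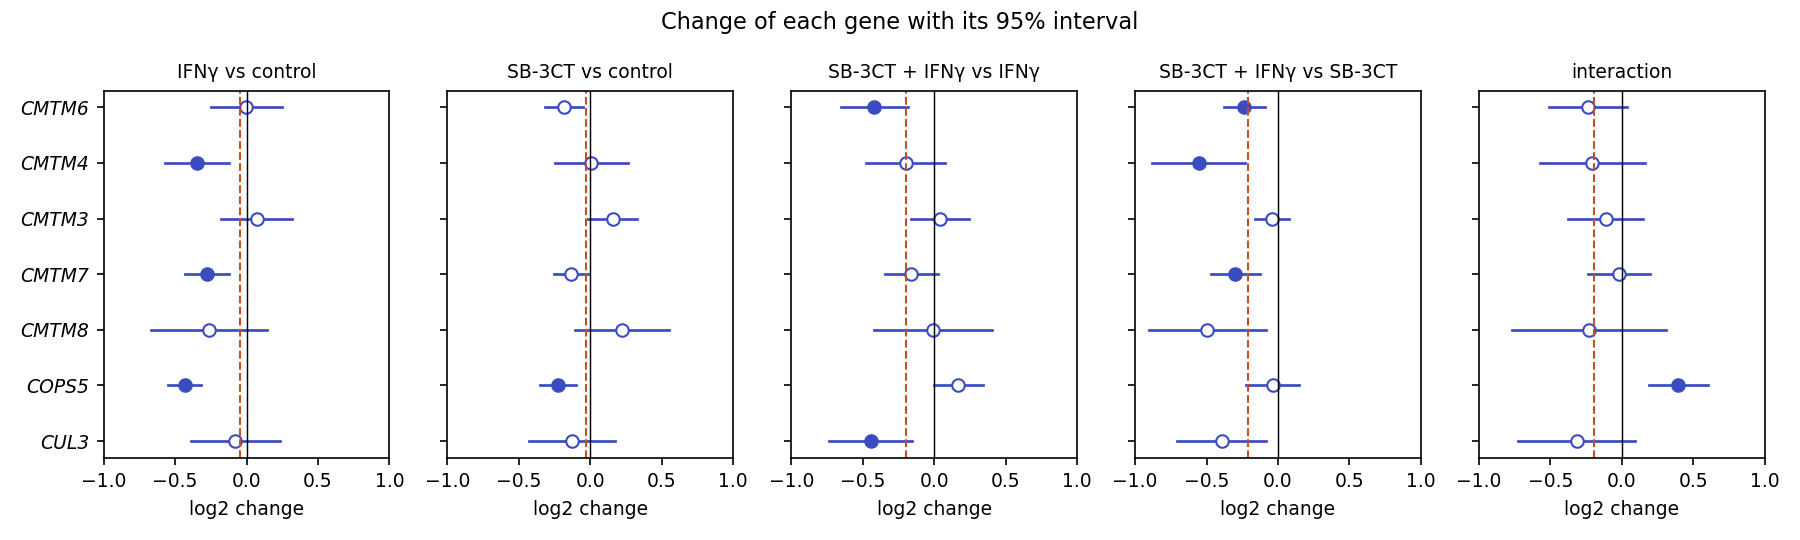
Log2 change on the log2(FPKM + 1) scale (horizontal axes) of each of the 7 genes in the 4 comparisons and for the interaction, with bars for 95% intervals, filled points for an adjusted p under 0.05 and a dashed line at the median change of genes with a mean of at least 1 FPKM. COPS5 lies to the left with IFNγ alone and with SB-3CT alone and to the right for the interaction, while in both panels of SB-3CT with IFNγ the dashed line sits at -0.20 or -0.21.

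The center of all changes lay below 0 in both comparisons of SB-3CT with IFNγ. Among genes with a mean of at least 1 FPKM the median log2 change was -0.20 against IFNγ and -0.21 against SB-3CT, compared with -0.04 for IFNγ and -0.03 for SB-3CT against control. Median ratio scaling, which divides a sample by the median of its genes' ratios to their geometric means, brought these medians to 0.02 and 0.01. The direction of most of the 7 genes in the groups with both treatments was therefore set against 3 other scalings, namely this one, quantile normalization, and a correction that takes out, sample by sample, the trend along transcript length while summed FPKM is kept.

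CMTM6, which protects PD-L1 from degradation, was not called with IFNγ but was lowest in cells with SB-3CT and IFNγ. The gene has 4 exons on the minus strand of chromosome 3 (GRCh37, 32522804 to 32544344), and its last exon overlaps the end of CMTM7 on the opposite strand. The strand of the libraries is not given in the sources used here, so reads from the shared bases cannot be told apart. In control the 3 samples held 35.0, 34.6 and 37.6 FPKM, SB-3CT samples 33.6, 30.0 and 30.6, IFNγ samples 40.9, 30.8 and 36.3, and samples with both 25.04, 26.7 and 27.7. All 3 samples with both treatments lay below the other 9. Against IFNγ the log2 change was -0.42 (standard error 0.10, adjusted p = 0.0146 from limma), and mean FPKM fell by 26.4%. Against SB-3CT it was -0.24 (adjusted p = 0.0217 from limma). With IFNγ alone the 95% interval ran from -0.25 to 0.25, and with SB-3CT alone the change was -0.18 (adjusted p = 0.0787 from limma), which missed the threshold although the groups did not overlap. The interaction of CMTM6 was -0.24 (adjusted p = 0.193 from limma).

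The call of CMTM6 against IFNγ depended on scaling and on samples. It was -0.17 after median ratio scaling (adjusted p = 0.130 from limma) and -0.17 with the length trend removed (adjusted p = 0.174), and on the deposited scale 23.8% of genes with a mean of at least 1 FPKM had a lower change. It was also lost without IFNγ replicate 3 (-0.41, adjusted p = 0.0702), SB-3CT and IFNγ replicate 1 (-0.38, 0.0647) or replicate 2 (-0.43, 0.0567). Against SB-3CT the call was lost under all 3 scalings (0.02 after median ratio scaling, -0.04 with the length trend removed, -0.11 after quantile normalization), and also without SB-3CT replicate 3 (-0.25, adjusted p = 0.0524) or SB-3CT and IFNγ replicate 1 (-0.20, 0.0608) or 2 (-0.24, 0.0619). The IFNγ samples were the widest group, and without IFNγ replicate 2, the lowest of the 3, the interaction of CMTM6 was -0.34 (adjusted p = 0.0214 from limma).

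CMTM4, the relative that can replace CMTM6, moved differently and was lower with IFNγ whether or not SB-3CT was given. It lies on the minus strand of chromosome 16 (66648653 to 66730646), next to CMTM3. FPKM was 2.45, 2.71 and 2.67 in control and 3.19, 2.28 and 2.46 with SB-3CT. It was 2.18, 1.65 and 1.70 with IFNγ and 1.65, 1.65 and 1.14 with both, so each sample with IFNγ was below each sample without it. The change with IFNγ was -0.35 (standard error 0.09, adjusted p = 0.0458 from limma), and mean FPKM fell by 29.4%. The change of SB-3CT and IFNγ against SB-3CT was -0.55 (standard error 0.13, adjusted p = 0.0193 from limma), and mean FPKM fell by 44.1%. With SB-3CT alone the interval was -0.25 to 0.26, and on top of IFNγ the change was -0.20 (adjusted p = 0.236 from limma), so no SB-3CT change was detected in either setting.

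The direction of both IFNγ changes of CMTM4 held under all 3 scalings, at -0.31 to -0.37 against control, where the call was kept, and at -0.39 to -0.40 against SB-3CT, where it was lost (adjusted p of 0.0595 to 0.0713). The call against control was close to the threshold. It was lost without control replicate 1, 2 or 3 or IFNγ replicate 2 or 3 (adjusted p of 0.0908 to 0.144, changes of -0.30 to -0.38), and that against SB-3CT without SB-3CT replicate 3 (-0.59, adjusted p = 0.0515) or SB-3CT and IFNγ replicate 3 (-0.45, 0.0561). At these levels the added 1 FPKM also makes a log2 change understate the fall.

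Set against each other within a sample, CMTM4 made up 0.0731 ± 0.0046 of CMTM6 in control and 0.0513 ± 0.0037 with IFNγ. A factor common to all genes of a sample cancels in these ratios, a length trend does not, and they were chosen after the values were seen, so they are a description. The control samples ranged from 0.0700 to 0.0783 and the IFNγ samples from 0.0470 to 0.0535, with no overlap. With both treatments the ratio was 0.0563 ± 0.0133, spread wider than in any other group.

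CMTM7, a gene of the same family whose product is known to dampen growth factor signaling, was the most abundant CMTM transcript measured among the 7 genes and was lower in each group with IFNγ than in its counterpart without. It lies on the plus strand of chromosome 3 (32433190 to 32524559). Control samples held 77.1, 82.9 and 80.7 FPKM, SB-3CT samples 77.1, 71.5 and 70.0, IFNγ samples 61.2, 70.9 and 66.3, and samples with both 58.7, 54.4 and 64.3. All 3 IFNγ samples were below all 3 controls, while the IFNγ samples overlapped those with both treatments. The change with IFNγ was -0.28 (standard error 0.06, adjusted p = 0.0269 from limma), and mean FPKM fell by 17.6%. Against SB-3CT, SB-3CT and IFNγ gave -0.30 (adjusted p = 0.0181 from limma). The SB-3CT changes, -0.14 alone (adjusted p = 0.118) and -0.16 with IFNγ (0.158), were not called.

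Neither call of CMTM7 held throughout. Against control it was lost after median ratio scaling (-0.23, adjusted p = 0.140 from limma) and after quantile normalization. It was also lost without control replicate 1, 2 or 3 or IFNγ replicate 3 (-0.25 to -0.31, adjusted p of 0.0606 to 0.0963). Against SB-3CT it was lost under all 3 scalings (-0.04 to -0.19). There it was also lost without replicate 1 of SB-3CT (-0.26, adjusted p = 0.0580) or of SB-3CT and IFNγ (-0.29, 0.0553). With SB-3CT alone it was called only without SB-3CT replicate 1 (-0.18, adjusted p = 0.0438).

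CMTM3 and CMTM8, which encode MARVEL-domain proteins that are known to act on EGFR at the membrane, gave no call in any of the 5 tests on the deposited scale. CMTM3 (chromosome 16, plus strand, 66637777 to 66647795) was between 15.4 and 20.6 FPKM in all 12 samples, and its group means, 17.2, 19.2, 18.1 and 18.6 in control, SB-3CT, IFNγ and both, had overlapping samples in every comparison. Its intervals bound any IFNγ change between -0.18 and 0.32. With both treatments against IFNγ it was called as higher after median ratio scaling (0.29, adjusted p = 0.0142 from limma) and quantile normalization (0.22, adjusted p = 0.0498), against 0.04 as deposited. Against SB-3CT it was likewise called as higher after median ratio scaling (0.21, adjusted p = 0.0362 from limma), against -0.04 as deposited. Median ratio scaling also raised the higher calls among all genes, from 315 to 811 against IFNγ and from 386 to 675 against SB-3CT.

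CMTM8 (chromosome 3, plus strand, 32280171 to 32411813) had 1 sample apart from the others of its group under each treatment. Control samples held 4.82, 4.41 and 5.38 FPKM, SB-3CT samples 5.17, 7.48 and 5.10, IFNγ samples 4.31, 2.81 and 4.76, and samples with both 4.26, 3.11 and 4.30. The lowest SB-3CT sample was above the highest sample with both treatments, a change of -0.49 that missed the threshold (standard error 0.17, adjusted p = 0.0591 from limma) and passed it when only genes with a mean of at least 1 FPKM were fitted (adjusted p = 0.00989). With IFNγ alone the interval of -0.67 to 0.14 does not show the direction.

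COPS5 was called in 3 of the 5 tests, more than any other of the 7 genes. It was highest in control at 80.4, 84.5 and 80.5 FPKM. SB-3CT samples held 74.9, 67.0 and 67.6, IFNγ samples 63.6, 57.8 and 59.6, and samples with both 61.6, 69.9 and 72.9. Every treated sample was below every control sample, and the IFNγ samples were also below all SB-3CT samples. The change with IFNγ was -0.43 (standard error 0.05, adjusted p = 0.00233 from limma), mean FPKM fell by 26.2%, and 5.85% of the 3177 genes with a mean of at least 1 FPKM had a lower change. The change with SB-3CT alone was -0.23 (standard error 0.05, adjusted p = 0.0372 from limma), and mean FPKM fell by 14.6%. The exons of COPS5 overlap those of CSPP1 on the other strand and of PPP1R42 on the same strand, so its level carries that uncertainty.

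With both treatments COPS5 overlapped each single treatment. On top of IFNγ, SB-3CT gave a change of 0.17 (adjusted p = 0.113 from limma), and on top of SB-3CT, IFNγ gave -0.04 (interval -0.22 to 0.15, adjusted p = 0.738). The SB-3CT change with IFNγ was thus 0.40 above that without it (standard error 0.09, adjusted p = 0.0150 from limma), and 94.1% of genes with a mean of at least 1 FPKM had a lower value. This difference ranged from 0.37 to 0.61 under the 3 scalings and was called in all 19 alternatives run, as the fall with IFNγ was in all 15. The fall with SB-3CT alone held under the 3 scalings but was lost without any of control replicates 1 to 3 or SB-3CT replicates 2 or 3 (-0.20 to -0.24, adjusted p of 0.108 to 0.136). Without SB-3CT and IFNγ replicate 1, the lowest of that group, the rise against IFNγ was 0.24 and was called (adjusted p = 0.0355 from limma), as it was after median ratio scaling (0.42, adjusted p = 0.00573).

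CUL3, the scaffold of the ligase that acts on PD-L1, was lowest with both treatments. It lies on the minus strand of chromosome 2 (225334867 to 225450114), where its exons overlap a long non-coding RNA of the other strand. Control samples held 4.76, 5.03 and 5.83 FPKM, SB-3CT samples 5.75, 4.0 and 4.38, IFNγ samples 5.96, 4.34 and 4.43, and samples with both 2.96, 3.57 and 3.41, and the last 3 samples lay below the other 9. Against IFNγ the change was -0.45 (standard error 0.12, adjusted p = 0.0267 from limma), and mean FPKM fell by 32.5%. Against SB-3CT it was -0.39 (adjusted p = 0.0526 from limma), short of the threshold. With IFNγ alone the interval was -0.39 to 0.23 and with SB-3CT alone -0.43 to 0.17.

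The fall of CUL3 kept its sign but not its call. It was -0.24 after median ratio scaling, -0.15 after quantile normalization and -0.12 with the length trend removed (adjusted p of 0.127 to 0.470 from limma). It was also lost without IFNγ replicate 1 (-0.32, adjusted p = 0.0555) or 3 (-0.50, 0.0599) or any 1 sample with both treatments (-0.38 to -0.49, 0.0609 to 0.0976), while against SB-3CT the gene was called without SB-3CT replicate 2 (-0.48, adjusted p = 0.0429). On the deposited scale 21.5% of genes with a mean of at least 1 FPKM had a lower change than CUL3.

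COPS5, which removes NEDD8, and CUL3, a cullin that carries it, were also set against each other. The ratio of COPS5 to CUL3 within a sample was 15.8 ± 1.8 in control, 15.1 ± 1.9 with SB-3CT, 12.5 ± 1.6 with IFNγ and 20.6 ± 0.9 with both. The samples with both treatments, 19.6 to 21.4, lay above all others, and the IFNγ samples, 10.7 to 13.5, overlapped those with SB-3CT alone. This ratio too was chosen after the values were seen and is given with no test. With the length trend removed, the changes against IFNγ lay closer, at 0.11 for COPS5 and -0.12 for CUL3, compared with 0.17 and -0.45 as deposited.

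**Figure D3:**
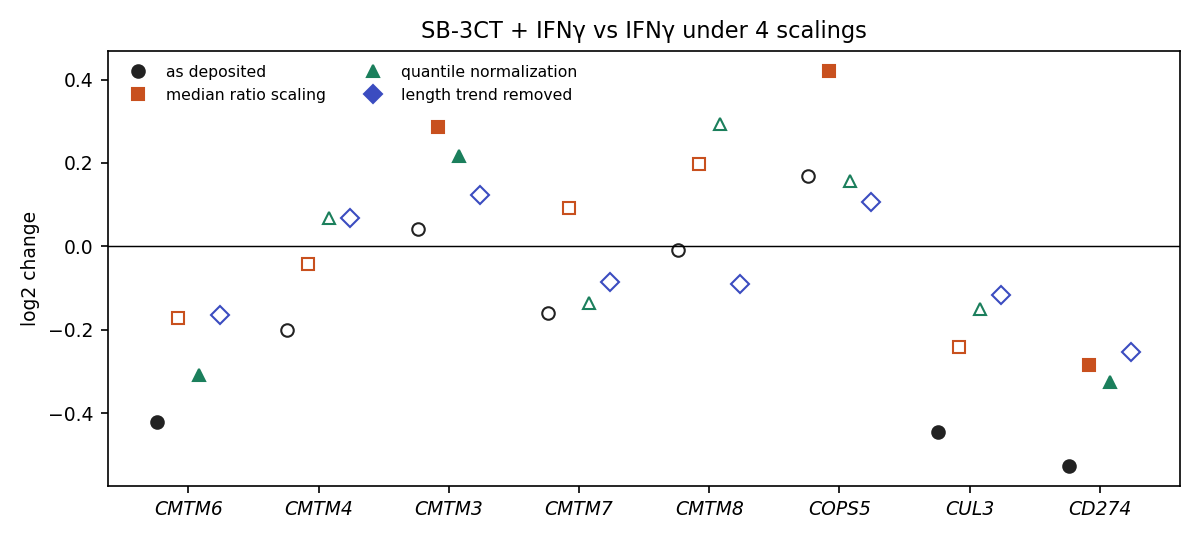
Log2 change (vertical axis) of the 7 genes and CD274 with SB-3CT and IFNγ against IFNγ under 4 scalings of the samples, with filled symbols for an adjusted p under 0.05. CMTM6, CUL3 and CD274 are below 0 under each scaling, COPS5 and CMTM3 are above 0 under each, and CMTM4, CMTM7 and CMTM8 lie on both sides of 0.

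CD274 itself went from 0.565, 0.428 and 0.635 FPKM in control to 23.9, 19.3 and 21.9 with IFNγ and 13.5, 14.4 and 16.2 with both treatments, and SB-3CT alone left it at 0.534, 0.808 and 0.548. The 3 samples with both treatments lay below the 3 with IFNγ. The fall was -0.53 (adjusted p = 0.00542 from limma) and was not called with the length trend removed (-0.25, adjusted p = 0.0603).

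How the 7 genes stood relative to CD274 was compared within each sample, since a factor common to all genes of a sample cancels in such a ratio. Quantile normalization and the length correction act gene by gene and do not cancel. In control there were 67.3 ± 11.8 CMTM6 per CD274 by FPKM, and with IFNγ 1.65 ± 0.06. With both treatments the ratio was 1.80 ± 0.08, a log2 difference from IFNγ of 0.12 (standard error 0.05) that an exact two-sided permutation test put at p = 0.2, with overlapping samples. For CUL3 the ratio was 0.226 ± 0.024 with IFNγ and 0.225 ± 0.020 with both (exact permutation p = 1.0). For CUL3 the log2 difference was 0.0009 (standard error 0.11). With 3 samples against 3 the test could not reach a p under 0.1, so it cannot show whether either ratio shifted. With the length trend removed the changes against IFNγ behind these ratios were -0.17 for CMTM6, -0.12 for CUL3 and -0.25 for CD274. As deposited they were -0.42, -0.45 and -0.53.

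COPS5 relative to CD274 was 2.79 ± 0.18 with IFNγ and 4.63 ± 0.19 with both. The IFNγ samples ranged from 2.66 to 3.00 and those with both treatments from 4.49 to 4.84, without overlap, a log2 difference of 0.73 (standard error 0.06, exact two-sided permutation p = 0.1). With the length trend removed the changes behind this difference were smaller, 0.11 for COPS5 and -0.25 for CD274, compared with 0.17 and -0.53 as deposited. CMTM3 went from 0.836 ± 0.032 to 1.27 ± 0.15, a difference of 0.60, and CMTM7 from 3.09 ± 0.56 to 4.02 ± 0.28, a difference of 0.39, both without overlap (exact permutation p = 0.1 each). CMTM4 differed by 0.23 (exact permutation p = 0.4) and CMTM8 by 0.55 (exact permutation p = 0.2), with overlap. With 3 samples against 3 no p under 0.1 can be had, and 7 ratios were tested, so none of these passes a threshold of 0.05.

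**Figure D4:**
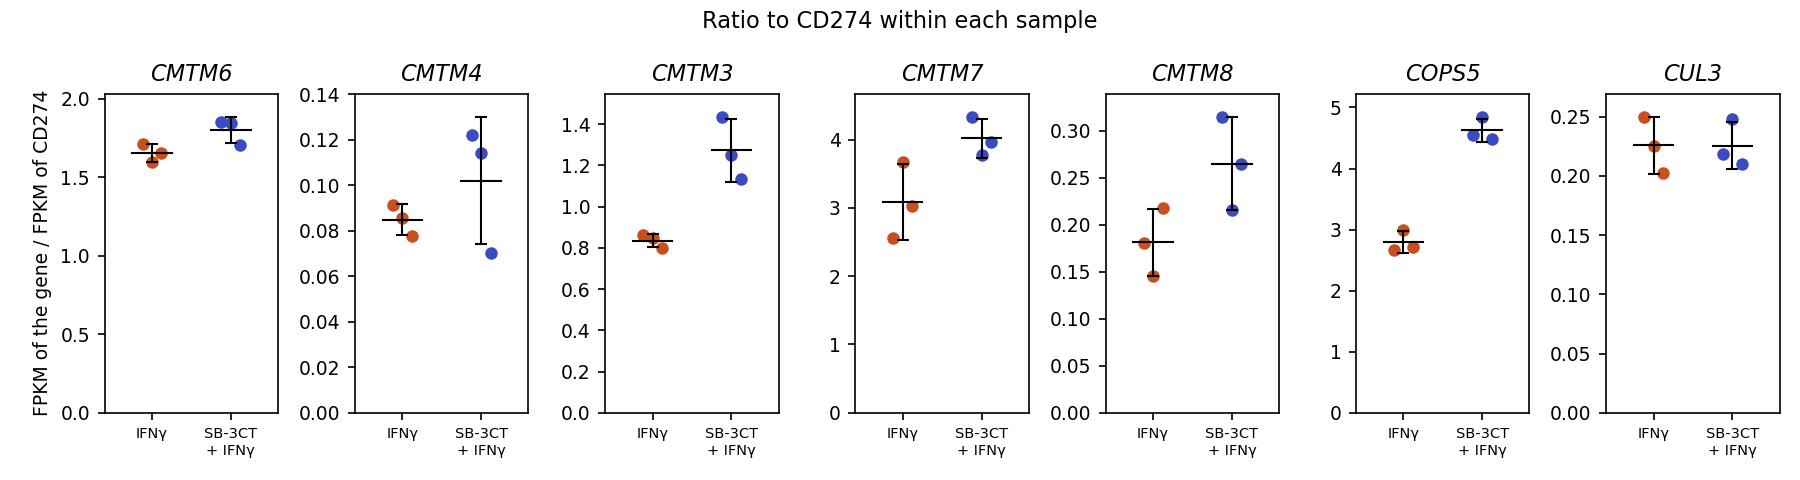
FPKM of each gene divided by FPKM of CD274 in the same sample (vertical axes, from 0) for the 3 IFNγ samples and the 3 samples with SB-3CT and IFNγ, with means and 1 SD. The groups are apart for CMTM3, CMTM7 and COPS5, and overlap for CMTM6, CMTM4, CMTM8 and CUL3.

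COPS5 was also set beside the other subunits of the COP9 signalosome. All 8 genes of that list were measured, and the counts below include COPS5 itself. With IFNγ 5 of the 8 fell and 0 rose, where 11.0% of all genes were called lower and 8.46% higher. Those that fell were COPS2 (-0.44), COPS5, COPS4 (-0.32), COPS8 (-0.25) and COPS6 (-0.20). The list median was -0.25, against -0.02 for all genes. COPS6, which pairs with COPS5 in the complex, was the most abundant subunit at 158.7 ± 1.4 FPKM in control. After median ratio scaling 3 of the 8 fell and 0 rose with IFNγ. With SB-3CT alone COPS2 (-0.58), COPS4 (-0.31) and COPS5 fell and COPS7A (0.27) rose, so 3 of 8 were lower where 6.87% of all genes were.

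A positive interaction was called for COPS5 and for 2 other subunits. In that test 3 of 8 were called and all were positive, where 4.74% of all genes were called as positive and 17.6% as negative. The 3 include COPS5, which the same test had picked out. They were COPS4 (0.50, adjusted p = 0.0142 from limma), COPS5 and COPS8 (0.21, adjusted p = 0.0433). The count was 3 or 4 higher and 0 lower under each scaling. COPS4 ran 23.0, 18.4, 18.2 and 20.9 FPKM in mean over control, SB-3CT, IFNγ and both, and COPS8 30.2, 29.9, 25.1 and 28.9. COPS2 did not follow: it was 24.6, 16.3, 17.8 and 11.9, and with both treatments it fell against IFNγ by -0.54 (adjusted p = 0.00298 from limma), a call lost with the length trend removed (-0.16). Within a sample COPS5 was 0.515 ± 0.019 of COPS6 in control, 0.448 ± 0.029 with SB-3CT and 0.437 ± 0.015 with IFNγ. Neither treated group overlapped control. With both treatments it was 0.481 ± 0.053, which overlapped all other groups. The ratio of COPS5 to COPS6 was likewise chosen after the values were seen and is a description.

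**Figure D5:**
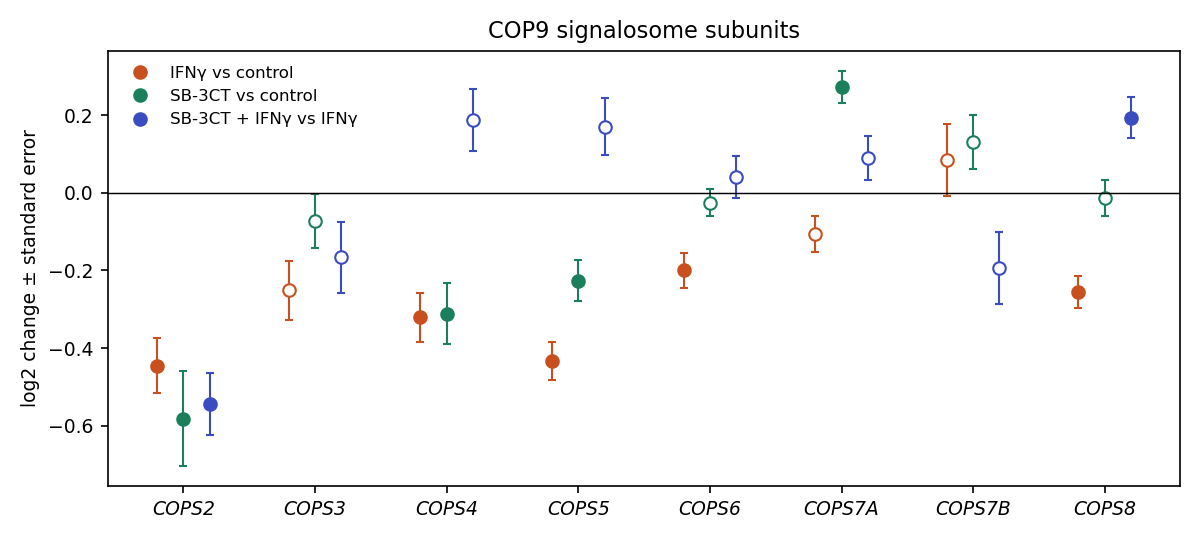
Log2 change with its standard error (vertical axis) of the 8 COP9 signalosome genes in 3 comparisons, with filled points for an adjusted p under 0.05. COPS4, COPS5 and COPS8 are below 0 with IFNγ and above 0 with SB-3CT on top of IFNγ, while COPS2 is below 0 in all 3 comparisons.

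Around CUL3, 17 cullins and genes for exchange or NEDD8 transfer were measured, and the counts below include CUL3 itself. With SB-3CT and IFNγ against IFNγ 10 fell and 1 rose, where 31.5% of all genes were called lower. Among the 3177 genes with a mean of at least 1 FPKM, 1358 were called lower, a larger share. The list median was -0.43, against -0.09 for all genes and -0.20 for genes with a mean of at least 1 FPKM. The largest fall was that of CAND1, which frees cullins to change adaptors, from 21.6 to 11.6 FPKM (-0.83, adjusted p = 0.00209 from limma), and the rise was that of DCUN1D5, a factor for NEDD8 transfer (0.21). After the length trend was removed 4 fell and 1 rose, and both CAND1 (-0.42) and DCUN1D5 (0.62) were still called. CAND2, a relative of CAND1, rose with IFNγ from 0.332 to 2.09 FPKM (1.21, adjusted p = 0.000197 from limma). DCUN1D5 was the 1 gene that fell with IFNγ alone (-0.28), where 11.0% of all genes were called lower. CAND1 was lower with SB-3CT alone (-0.47). In the interaction 4 of the 17 were negative and 0 positive, led by ARIH1 (-0.50), where 17.6% of all genes were negative and 4.74% positive. Under the scalings 0 or 1 of the 17 were negative and 1 was positive.

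Among 9 genes of BTB proteins that serve or could serve CUL3 as adaptors, 7 fell and 0 rose with SB-3CT and IFNγ against IFNγ. In that comparison 31.5% of all genes were called lower, and 1358 of the 3177 genes with a mean of at least 1 FPKM. BTBD3 fell from 22.6 to 10.4 FPKM (-1.05, adjusted p = 0.00194 from limma), and was still called at -0.71 to -0.85 under the 3 scalings, which left 4 or 5 of the 9 lower. BTBD3 also rose with IFNγ (0.37) and fell with SB-3CT alone (-0.50). ENC1 was the largest fall of SB-3CT and IFNγ against SB-3CT (-0.80) and in the interaction (-0.56).

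B3GNT3 has no value here, but 14 of 16 genes with B3GNT or B4GALT symbols were measured. Not all of these encode enzymes that build poly-N-acetyllactosamine. B3GNT7 fell with IFNγ from 6.60 to 3.13 FPKM (-0.88, adjusted p = 0.00303 from limma) and was likewise lower with both treatments than with SB-3CT (-0.82). B4GALT1, a galactosyltransferase, rose with IFNγ (0.31) and with SB-3CT (0.24), and the interaction was negative (-0.53, adjusted p = 0.00139 from limma), the call being kept under each scaling (-0.28 to -0.36). B4GALT6 fell with SB-3CT alone (-0.51), a call kept under the 3 scalings (-0.43 to -0.47). It also fell with SB-3CT and IFNγ against IFNγ (-0.60). There the fall was -0.31 to -0.40 under the 3 scalings. It was not called with the length trend removed (-0.33, adjusted p = 0.0502 from limma). In that comparison 5 of the 14 fell and 0 rose, near the 31.5% of all genes called lower, and after median ratio scaling 2 fell and 2 rose.

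Among 10 other genes known to act on PD-L1 protein, 2 rose with IFNγ and 0 fell, where 8.46% of all genes were called higher. With SB-3CT and IFNγ against IFNγ 6 fell and 0 rose, and with the length trend removed 2 fell. As deposited 31.5% of all genes were lower, and 1358 of the 3177 genes with a mean of at least 1 FPKM. DERL1, which draws proteins out of the endoplasmic reticulum for degradation, rose with IFNγ from 21.9 to 28.8 FPKM (0.38, adjusted p = 0.0182 from limma). ADAM10, a protease that can shed PD-L1, fell with SB-3CT on top of IFNγ from 23.2 to 13.6 FPKM (-0.73, adjusted p = 0.00207 from limma) and was still called under each scaling (-0.31 to -0.52). With SB-3CT alone ADAM10 fell by 0.41 on the log2 scale. CCND1, whose kinase partner CDK4 acts on SPOP, had the largest negative interaction of the list (-0.51, adjusted p = 0.00729 from limma).

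Over the 12 samples each gene was also matched to those of similar course, by Pearson's r of the log2 values among genes with a mean of at least 1 FPKM. The 12 values share 4 groups and any common shift of a sample, so r is a description. CMTM6 was closest to BNIP2 (r = 0.97), CPSF2 and ADSS, and CUL3 to DONSON (0.96), CSNK2A3 and, like CMTM6, ADSS. CMTM6 and CUL3 also ran close to each other (r = 0.91), the highest r of any pair of the 7 genes. CMTM4 was closest to CLP1 (0.95), APBB1 and ALDH9A1, and CMTM7 to CEND1 (0.94), CALB2 and CREB3L2. COPS5 was closest to ATP6V1D (0.97), ADK and DCAF13, and CMTM8 to DPH7 (0.96), ATXN7L2 and CUEDC2. The closest match of CMTM3 reached only 0.84, to F3, ahead of CHTF8 and ABHD12. CD274 ran with the IFNγ targets CASP1, C1R and APOL1 (each 0.997), and its r with the 7 genes ranged from -0.82 (CMTM4) to 0.08 (CMTM3).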

How the data were processed

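RNA from 12 A375 samples was sequenced as paired-end reads. Per the labels, the authors aligned reads with HISAT2 2.0.5 to hg19 and calculated FPKM with StringTie 1.3.3, and the deposited values are log2(FPKM + 1), with a highest value of 12.16. The annotation is not given in the sources used here. Since the planned tests took the logarithm of FPKM, that step was dropped. Each column carries a sample's name, and 0 columns went unused. Unpaired fits used limma 3.58.1 under R 4.3.3 (linear models, then empirical Bayes with a mean-variance trend) on the 3 + 3 samples of a comparison or, for the interaction, all 12. P-values were adjusted by Benjamini-Hochberg over 4918 unfiltered genes, and the code was checked on simulated data. Nothing states that the samples of a group were separate cultures, so p-values measure the spread between samples, which may be technical. The smallest exact permutation p of 3 against 3 is 0.1. The files give no read totals, so counting error cannot be stated.

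The genes and lists were chosen with earlier results of these data known. Named are the 7 genes and CD274, for each list the largest rise and fall at an adjusted p under 0.05 outside the 7 genes in each comparison (the list counts name a few more, chosen after their values were seen, and 1 gene the rule names is not reported here), and the 3 genes closest to each by Pearson's r. Positions are from GENCODE release 44 on GRCh37, upstream sequences from RefSeq on GRCh38.p14, and no window of COPS5 was in that table. Alternatives were adding 0.1 in place of 1, only genes averaging 1 FPKM or more, 3 scalings, all groups in 1 fit, robust estimation, a replicate block, each sample left out, a per-gene test on FPKM, and a fold change over 1.5 with unadjusted p under 0.05.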

Additional observations from a re-analysis of the deposited data

Results flagged for a closer look

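COPS5 and CD274 were picked out because the SB-3CT change differed between cells with and without IFNγ, by the interaction test over all 12 samples. For COPS5 this log2 difference was 0.40 (adjusted p = 0.0150 from limma). COPS5 was lower with SB-3CT in cells without IFNγ, a call kept in 8 of 15 alternatives. With IFNγ the 3 samples with both treatments overlapped the 3 with IFNγ alone at a higher mean. For CD274 the difference was -0.60 (adjusted p = 0.0154 from limma), with a value below 1 FPKM in all 6 samples without IFNγ. The value of COPS5 was called under each of the 3 scalings, while that of CD274 was -0.38 after median ratio scaling (adjusted p = 0.0814), -0.44 after quantile normalization (0.0580) and -0.35 with the length trend removed (0.130), and was called under none of them. Of the 7 genes COPS5 was thus the only one with a call in this test as deposited, and its sign was opposite to that of CD274.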

How the results depend on the processing

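With 3 samples per group, unknown depth and log2 changes of mostly under 0.5, few calls had room to lose a sample. Of 632 values of single genes under the alternatives, 520 kept direction and side of the threshold, 62 lost a call, 16 gained one and 34 changed sign, 18 of these with all samples in.

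The count of the 7 genes called with IFNγ was 3, and 2 after median ratio scaling, quantile normalization, the replicate block, a pseudocount of 0.1 or 1 fit of all groups, 1 by the per-gene test on FPKM, 0 at a fold change over 1.5, and 1 to 3 with a sample left out. With SB-3CT it was 1, and 2 with genes of at least 1 FPKM or after quantile normalization, 0 by the per-gene test, under the replicate block or at a fold change over 1.5, and 0 to 3 with a sample left out. With SB-3CT and IFNγ against IFNγ it was 2, both lower, and 2 other genes, COPS5 and CMTM3, both higher, after median ratio scaling, 2 after quantile normalization (CMTM3 higher, CMTM6 lower), 0 with the length trend removed, by the per-gene test or at a fold change over 1.5, 1 under the replicate block, and 0 to 2 with a sample left out. Against SB-3CT it was 3, and 5 with genes of at least 1 FPKM, in 1 fit of all groups or with robust estimation, 1 after median ratio scaling (CMTM3, higher, none of the 3 that fell), 0 with the length trend removed, after quantile normalization, by the per-gene test or at a fold change over 1.5, and 1 to 4 with a sample left out. For the interaction it was 1, 0 at a fold change over 1.5, and 1 to 2 with a sample left out. These counts have to be read against all 4918 genes. With SB-3CT and IFNγ against IFNγ, 315 were called higher and 1547 lower as deposited. These became 811 and 760 after median ratio scaling, and 542 and 714 after quantile normalization. Against SB-3CT, 386 were higher and 1608 lower as deposited, and 675 and 504 after median ratio scaling. Higher calls of COPS5 and CMTM3 thus came with more higher calls among all genes. The causes were not tested.

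Signs turned for small changes. With IFNγ CMTM6 was 0.048 after median ratio scaling and 0.0084 by the per-gene test. Against IFNγ, CMTM4 was 0.069 after quantile normalization and 0.068 with the length trend removed, CMTM7 0.093 after median ratio scaling, and CMTM8 0.20 and 0.29 after median ratio scaling and quantile normalization. Against SB-3CT, CMTM3 was 0.21, 0.12 and 0.067 under median ratio, quantile and length scaling, CMTM6 0.018 under the first, and COPS5 0.22 and 0.040 under the first and second. In the interaction CMTM3 was 0.091 and 0.039 under these, and CMTM7 0.19, 0.040 and 0.071 under all 3. With a sample left out, signs turned within -0.019 to 0.14 (CMTM3) and -0.095 to 0.10 (CMTM6) with IFNγ, -0.099 to 0.078 (CMTM4) with SB-3CT, -0.028 to 0.13 (CMTM3) and -0.19 to 0.11 (CMTM8) against IFNγ, -0.088 to 0.032 (COPS5) against SB-3CT, -0.083 to 0.036 (CMTM7) in the interaction, and -0.076 to 0.076 (CUL3 to CD274).

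The labels number the samples of each group, but deviations of same-numbered samples correlated between -0.39 and 0.17, so the numbers were not taken as pairs. With the replicate block, COPS5 with SB-3CT was -0.23 (adjusted p = 0.0719 from limma), CUL3 with both treatments against IFNγ -0.45 (0.0596), CMTM4 with IFNγ -0.35 (0.102), and CMTM6 with both against SB-3CT -0.24 (0.0798), each no longer called. The block changed no other call of the 7 genes.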

Other observations

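Outside the 7 genes, the CKLF and CMTM family had 8 of its 9 genes measured. CKLF, a chemokine-like factor and the founder of the family, lay between CMTM7 and CMTM6 in control. Control samples held 66.2, 80.1 and 73.1 FPKM, SB-3CT samples 63.3, 77.6 and 73.4, IFNγ samples 67.2, 75.0 and 64.7, and samples with both treatments 91.1, 89.6 and 84.9, so the last 3 samples were above the other 9. Its change with SB-3CT on top of IFNγ was 0.36 (standard error 0.07, adjusted p = 0.00568 from limma), opposite in sign to CMTM6, and the ratio of CKLF to CMTM6 was 1.96 ± 0.42 with IFNγ and 3.35 ± 0.29 with both. With the length trend removed the change was 0.07 and not called (adjusted p = 0.389 from limma). Exons of CKLF are shared with the readthrough CKLF-CMTM1, which was at 1.01 FPKM or below in every sample. CMTM1 stayed at or below 1.44 FPKM and CMTM5 at or below 0.208 FPKM.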
